A study of Homo sapiens with 8 samples.

Results

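The 7 genes described here carry cholesterol out of cells or answer to the liver X receptors (LXR). They were taken by name from 55765 gene symbols in 8 RNA-seq libraries. NR1H2 and NR1H3 are the receptor genes, ABCA1 and ABCG1 the exporter genes, and APOE the carrier gene. LPCAT3 encodes an enzyme of membrane phospholipids and SMPDL3A a secreted nucleotide phosphodiesterase. The libraries are total RNA of 2 human leukaemia cell lines, NB4 (acute promyelocytic leukaemia, PML-RARA fusion) and Kasumi-1 (myeloblastic leukaemia, RUNX1-RUNX1T1 fusion). In each line, 1 library came from untreated cells and 1 each from cells exposed to 40 uM chlorprothixene, a tricyclic antipsychotic, for 6, 12 and 24 h. Each line is an established culture grown with fetal bovine serum, and the labels name no vehicle and no untreated culture matched to a time, so drug and culture time cannot be told apart. No condition was repeated, and no value below has a spread between cultures.

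LXR proteins pair with retinoid X receptors (RXR) and bind DNA as heterodimers. Oxysterols and desmosterol are their ligands, so the pair senses a cell's sterol load. In macrophages, where they are best known, active LXR raises the genes of sterol export (ABCA1, ABCG1), of the lipoprotein that takes sterol up (APOE), and of phospholipid remodelling (LPCAT3). SREBP-2 works in the opposite situation and raises sterol synthesis and uptake when membrane sterol is low.

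ABCA1, the exporter that hands cholesterol and phospholipid to apolipoprotein A-I, had the widest change of the 7. It stood at 12.5 TPM in untreated NB4 and at or below 0.619 TPM in all 3 treated NB4 libraries, whereas Kasumi-1 was listed at or below 0.0280 TPM throughout. TPM is the abundance per transcript length, scaled to the same sum in every library. APOE was higher in 5 of 6 treated libraries, at 3.49 to 5.40 TPM in treated Kasumi-1 against 0.920 TPM untreated. The receptor NR1H3 was higher in NB4 than in Kasumi-1 at every time, and LPCAT3 stayed within 1.26-fold of its untreated level in all 6 treated libraries.

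The ABCA1 promoter is shown because ABCA1 carries the main difference and because the letters of a classical LXR element lie in it. The window is the 250 bases before the RefSeq start (GRCh38.p14, chr9:104928156-104928405, minus strand, printed 5′ to 3′). Capitals mark an E-box (CACGTG, first base 147 bases before the start) and the closest match to a direct repeat of 2 half-sites 4 bases apart.

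ABCA1 upstream: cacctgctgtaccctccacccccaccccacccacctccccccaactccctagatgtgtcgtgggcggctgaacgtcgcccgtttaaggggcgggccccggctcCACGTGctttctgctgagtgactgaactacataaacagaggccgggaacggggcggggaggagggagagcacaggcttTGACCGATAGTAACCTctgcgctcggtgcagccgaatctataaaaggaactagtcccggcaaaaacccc

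The repeat searched for was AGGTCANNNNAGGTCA, on both strands, counting mismatches over the 12 half-site bases. The set of RefSeq promoters used here gave windows for 5 of the 7 genes, 10 in all, and none for ABCG1 or SMPDL3A. The closest site of each gene is given in the orientation of the repeat, with the half-sites in capitals and 1 window for each of the genes with several starts.

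ABCA1: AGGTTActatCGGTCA
NR1H2: GGCTCAgagaAGCGCA
NR1H3: ATGTCTtcacTGGTGA
APOE: TGGTCAaaagACCTCT
LPCAT3: AGGTAGgaagAGGGCG

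The ABCA1 site differs from the repeat at 2 of 12 bases, and the closest sites of NR1H2, NR1H3, APOE and LPCAT3 at 4. Of 35116 promoter windows of the same length, 2.03% held a site with at most 2 mismatches, and 6.34% held the E-box letters. These are letter matches in the reference sequence and say nothing of binding in these cells. An element outside the window, as those known for several of these genes, would not be seen.

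**Figure D1:**
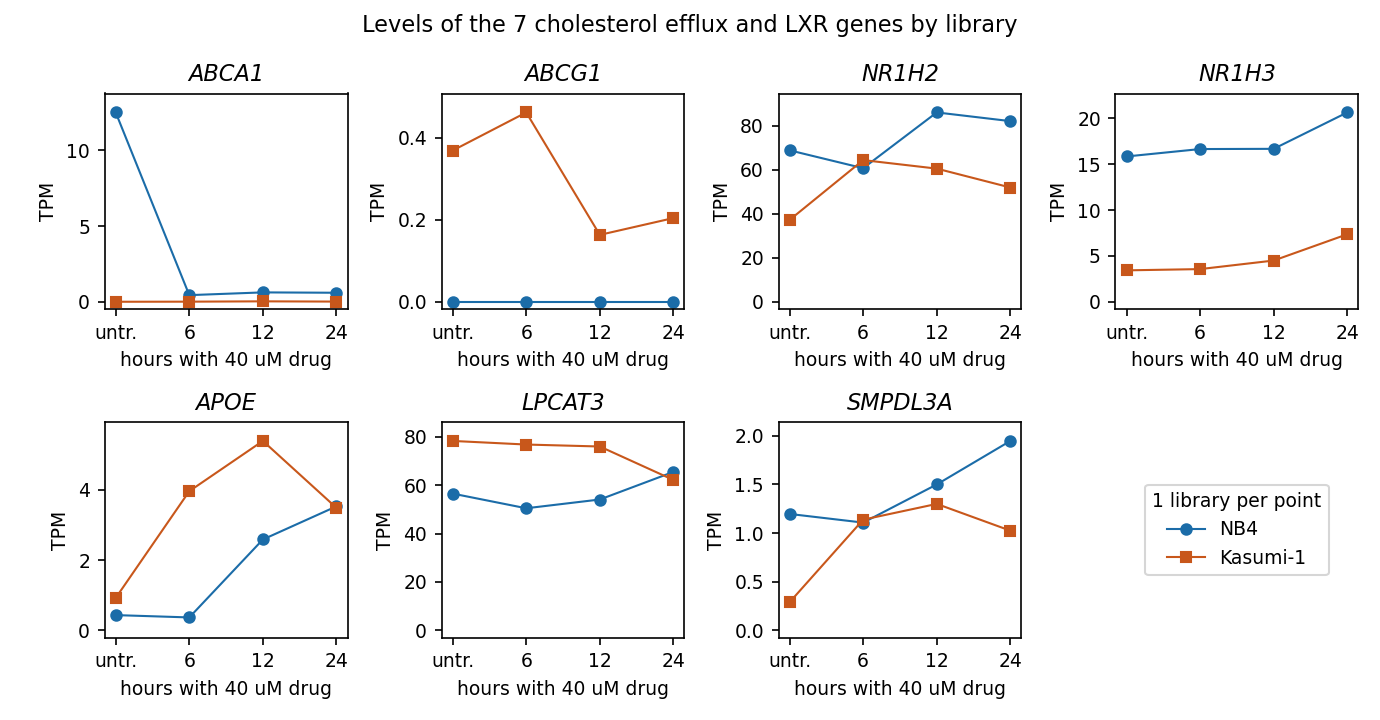
Level of each gene in TPM (vertical axes, linear, each with its own scale) against hours with 40 uM chlorprothixene, with the untreated library at the left; circles are NB4 and squares Kasumi-1, 1 library per point. ABCA1 in NB4 goes from 12.5 TPM to between 0.438 and 0.619 TPM, and NR1H3 is higher in NB4 in every library.

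Both receptors were present in all 8 libraries. NR1H2, which encodes LXR-beta, the form made in most tissues (ENSG00000131408.9, chromosome 19, 50832910 to 50886239, plus strand, hg19 as in the deposited tables), stood at 68.9 TPM in untreated NB4 and at 60.7, 86.1 and 82.2 TPM after 6, 12 and 24 h. In Kasumi-1 it went from 37.2 TPM to 64.4, 60.6 and 52.0 TPM. The untreated Kasumi-1 library was the lowest of the 8, and the lines overlapped, since Kasumi-1 at 6 h lay above NB4 at 6 h.

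NR1H3, which encodes LXR-alpha, the form known from liver, fat and macrophages and in human macrophages itself an LXR target (ENSG00000025434.14, chromosome 11, 47269851 to 47290396, plus strand), was at 15.8 TPM in untreated NB4 and at 16.7, 16.7 and 20.7 TPM in order of time. In Kasumi-1 the levels were 3.43 TPM untreated and 3.56, 4.50 and 7.36 TPM. The lines did not overlap, and in each line the 24 h library was the highest. NR1H3 was the only tested gene of the 7 that was higher in all 6 treated libraries, as were 12.9% of all genes tested. Its first 607 bases overlap ACP2 on the opposite strand, a lysosomal phosphatase gene at 18.7 to 29.6 TPM, and reads from the overlap cannot be assigned with certainty because strand-specific counting is not stated.

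Since TPM is per length, the receptor levels can be set side by side. NR1H2 exceeded NR1H3 in every library, by 4.35-fold in untreated NB4 and by 3.65-, 5.16- and 3.98-fold in its treated libraries. In Kasumi-1 the ratio was 10.86 untreated, 18.09 at 6 h, 13.47 at 12 h and 7.06 at 24 h. LXR-beta transcripts thus made up more of the receptor pool in Kasumi-1 than in NB4, at every time.

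Over all times, NR1H3 was lower in Kasumi-1 by limma, with a log2 difference of -1.73 (SE 0.17, adjusted p = 0.000172). This test took the times of a line as repeats, so its p-values measure no spread between cultures. For NR1H2 the log2 difference was -0.48 (SE 0.17, adjusted p = 0.0445). These were the 2 of 6 tested genes called between the lines, where 55.4% of all 14650 genes were called. The NR1H2 call was lost with FPKM (adjusted p = 0.0502), after rescaling (adjusted p = 0.0825), with no filter (adjusted p = 0.0946) and without the untreated libraries (adjusted p = 0.129). It was also lost without any 1 library of the untreated, 12 h or 24 h conditions, with adjusted p from 0.124 to 0.133.

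ABCA1 (ENSG00000165029.11, chromosome 9, 107543283 to 107690518, minus strand) was at 12.5 TPM in untreated NB4 and at 0.438, 0.619 and 0.595 TPM after 6, 12 and 24 h. The treated levels were 28.6-, 20.2- and 21.0-fold lower, and the low level was already there in the first treated library. On the inferred depth, these values rest on about 159 read pairs per kb of transcript untreated and 5.25, 6.01 and 6.55 treated. Kasumi-1 was listed at 0 TPM untreated and at 0.00615, 0.0280 and 0.0113 TPM after treatment, less than 1 read pair per kb in each library, so no change could be detected there. A value of 0 in such tables can be a failed estimate.

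On the log2(TPM + 1) scale, ABCA1 changed by -3.23, -3.06 and -3.08 in NB4 and by 0.01, 0.04 and 0.02 in Kasumi-1. The Kasumi-1 change exceeded the NB4 change by 3.15 (SE 0.33, 95% interval 2.38 to 3.91, limma adjusted p = 0.0222). It was 1 of 6 tested members called, beside 19 of 14650 genes (0.130%), and the only one at an unadjusted p under 0.05 (10.6% of all genes). ABCA1 reached the level for testing only through the untreated NB4 library, and Kasumi-1, at 0, had no level from which to fall. The call therefore adds nothing to the levels above and does not show that the lines respond differently.

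That call compares treated with untreated using the times of a line as repeats, and every NB4 change rests on the 1 untreated NB4 library. It was lost with a pseudocount of 0.1 TPM (4.49, SE 0.62, adjusted p = 0.0681), and on leaving out the 12 h (adjusted p = 0.084) or 24 h (0.0646) library of NB4, or the 6 h (0.0533) or 12 h (0.1) library of Kasumi-1. A gene of the opposite strand at its start, RP11-217B7.2, which shares 685 bases with ABCA1, was at 0.430 TPM in untreated NB4 and listed at 0 in the other 7 libraries. Without strand, reads of the pair cannot be told apart there.

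ABCG1, which moves sterol to high-density lipoprotein particles (ENSG00000160179.14, chromosome 21, 43619799 to 43717354, plus strand), was listed at 0 TPM in all 4 NB4 libraries. In Kasumi-1 it was at 0.369 TPM untreated and 0.462, 0.163 and 0.204 TPM treated, or 2.14 to 6.19 inferred read pairs per kb. It did not reach a mean of 1 TPM, the level set for testing, and no direction is given. ABCA1 in untreated NB4 was thus the only exporter value of these genes above 1 TPM in any library.

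**Figure D2:**
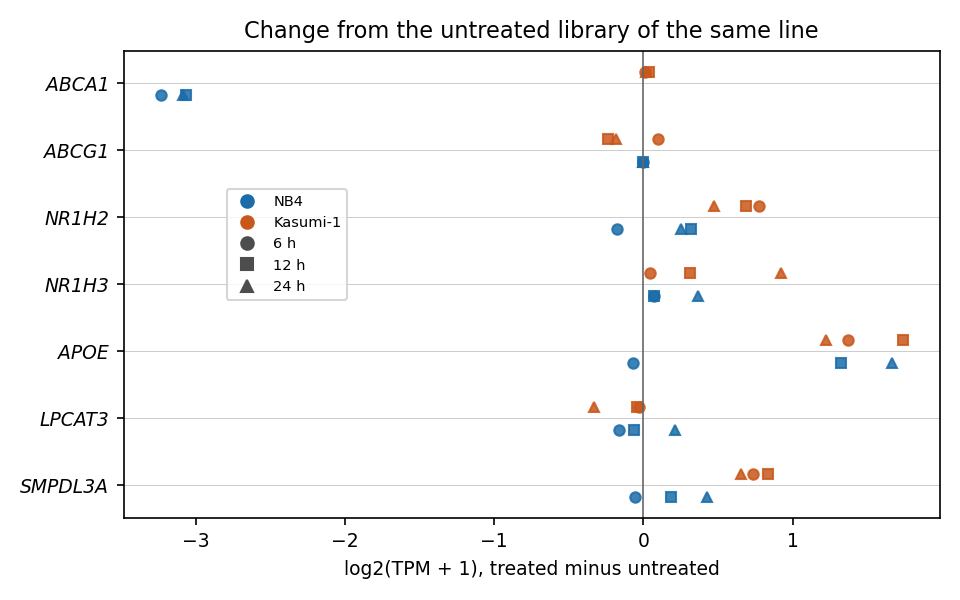
Difference of log2(TPM + 1) between each treated library and the untreated library of its line (horizontal axis) for the 7 genes; blue is NB4, orange Kasumi-1, and circles, squares and triangles are 6, 12 and 24 h. ABCA1 in NB4 lies between -3.23 and -3.06, and APOE lies above 1.2 in all treated libraries except NB4 at 6 h.

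APOE, the apolipoprotein that macrophages release with exported sterol (ENSG00000130203.5, chromosome 19, 45409011 to 45412650, plus strand), was at 0.432 TPM in untreated NB4 and at 0.365, 2.59 and 3.53 TPM in order of time. In Kasumi-1 it went from 0.920 TPM to 3.96, 5.40 and 3.49 TPM. The change was early in Kasumi-1, 4.31-fold at 6 h, and late in NB4, where the 6 h library was 0.846-fold the untreated one and the 24 h library 8.17-fold. The highest NB4 level, at 24 h, was near the lowest treated Kasumi-1 level, also at 24 h.

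In the limma model of the response shared by both lines, APOE had a mean log2 change of 1.21 (SE 0.36, adjusted p = 0.146) and was higher in 5 of 6 treated libraries. It passed no threshold after adjustment. Its difference between the lines' responses was 0.47 (95% interval -1.51 to 2.45), which covers a difference of either sign. The untreated levels rest on 5.49 inferred read pairs per kb in NB4 and 10.3 in Kasumi-1. CD14, a monocyte and macrophage marker, was at 0.0624 TPM in untreated NB4 and 0.219, 0.629 and 0.813 TPM treated, and its part in the APOE levels was not tested.

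SMPDL3A, a secreted nucleotide phosphodiesterase of the acid sphingomyelinase family that is LXR-induced in human macrophages (ENSG00000172594.8, chromosome 6, 123110315 to 123130865, plus strand), was also at low levels. NB4 had 1.20 TPM untreated and 1.11, 1.50 and 1.95 TPM treated. Kasumi-1 had 0.288 TPM untreated and 1.14, 1.30 and 1.02 TPM treated. The 3 treated Kasumi-1 libraries were all above the untreated one, 3.56- to 4.51-fold, but at 3.23 inferred read pairs per kb the untreated level is thinly covered. The mean log2 change over both lines was 0.46 (SE 0.24, limma adjusted p = 0.321).

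LPCAT3, which inserts polyunsaturated chains into membrane phospholipids (ENSG00000111684.6, chromosome 12, 7085348 to 7125814, minus strand), was among the well-covered members. It stood at 56.6 TPM in untreated NB4 and at 50.5, 54.1 and 65.5 TPM treated. Kasumi-1 had 78.4 TPM untreated and 76.9, 76.0 and 62.2 TPM treated. At 24 h the NB4 level lay above the Kasumi-1 level, and at the other times below it. The shared log2 change was -0.07, with a 95% interval of -0.46 to 0.32 (limma adjusted p = 0.846). LPCAT3 overlaps EMG1, a ribosome biogenesis gene of the opposite strand at 38.1 to 79.1 TPM, over 20173 bases of its span, so its assignment of reads is uncertain.

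In the test of the shared response, 0 of the 6 tested members passed at an adjusted p under 0.05, as against 4 of 14650 genes (0.0273%). At an unadjusted p under 0.05, APOE was higher, against 9.30% of all genes, and ABCA1 lower, against 11.1%. The ABCA1 mean of -1.55 (SE 0.63, adjusted p = 0.233) joins a large change in NB4 with values near 0 in Kasumi-1. Without the untreated NB4 library it was 0.02, and without the untreated Kasumi-1 library it was -3.13 (adjusted p = 0.0293). The receptors had mean log2 changes of 0.39 (95% interval -0.07 to 0.85) for NR1H2 and 0.30 (-0.16 to 0.75) for NR1H3. The median of the 6 members was 0.34, beside -0.03 for all genes tested.

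**Figure D3:**
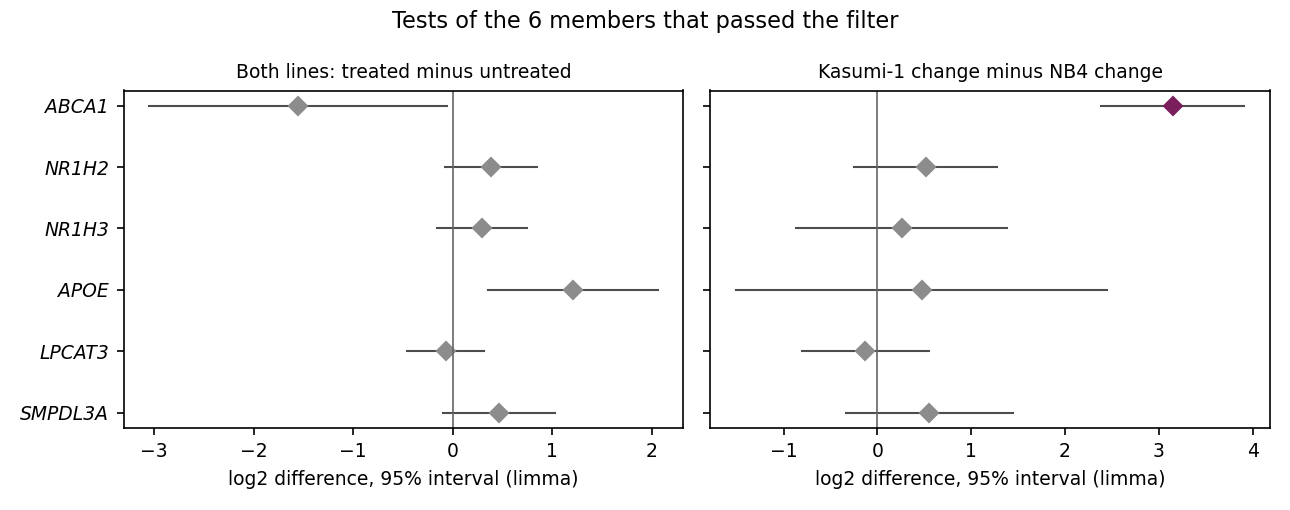
Log2 differences (horizontal axes) with 95% intervals from limma for the 6 tested genes: left, treated minus untreated over both lines; right, the Kasumi-1 change minus the NB4 change. The purple diamond marks the only adjusted p under 0.05, ABCA1 at 3.15 on the right.

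Within a line no separate test was run, and genes were counted whose log2(TPM + 1) differed from the untreated library by at least 1, in the same direction, at all 3 times. The added 1 TPM shrinks folds of low genes, so a gene can be 2-fold changed in TPM and miss this count. In NB4, 0 of the 6 tested members were higher by this rule (2.03% of all genes) and ABCA1 was lower (0.703%). In Kasumi-1, APOE was higher (1.88%) and 0 were lower (0.655%). SMPDL3A, 3.56- to 4.51-fold higher in TPM, was counted only with a pseudocount of 0.1 TPM. On log2(FPKM + 1) APOE was not counted, although its FPKM was 0.379 untreated and 1.63, 2.33 and 1.53 treated, since the added 1 weighs more on these smaller values.

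The other genes of the pathway came from lists of known partners, targets and enzymes. Of 17 further LXR targets, 10 reached the level for testing. None of the 10 passed after adjustment in the test of the shared response (0.0273% of all genes) or of the response difference (0.130%). At an unadjusted p under 0.05 the shared response had 2 higher (9.30% of all genes) and 1 lower (11.1%). For the response difference, 1 of the 10 was under 0.05 (10.6% of all genes). Their median shared change was 0.05, beside -0.03 over all genes. MYLIP, an LXR-induced ubiquitin ligase of lipoprotein uptake, was the one with the lowest mean (-0.80, SE 0.26, adjusted p = 0.165). Untreated NB4 had 30.3 TPM of it and treated NB4 10.8, 11.3 and 11.3 TPM, while Kasumi-1 had 102.9 TPM untreated and 93.7, 98.4 and 70.8 TPM treated. MYLIP alone of this list was at least 2-fold lower on log2(TPM + 1) at all times in NB4 (0.703% of all genes). FASN alone was at least 2-fold higher there by the same rule (2.03% of all genes). The difference of MYLIP between the lines' responses missed the threshold (1.12, SE 0.30, limma adjusted p = 0.315).

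SREBF1, which encodes SREBP-1 and is driven by LXR in liver, had 101.4 TPM in untreated NB4 and 63.5, 59.4 and 80.8 TPM in its treated libraries. In Kasumi-1 it was at 73.3 TPM untreated and at 98.2, 65.7 and 45.7 TPM. PLTP, the phospholipid transfer protein, was at 261.2 TPM in untreated NB4 and 154.1 TPM at its lowest, at 12 h, and in Kasumi-1 at 81.2 TPM untreated and 49.1 TPM at 24 h. All 3 of MYLIP, SREBF1 and PLTP were lower than untreated in each treated NB4 library, and SREBF1 and PLTP were above it in Kasumi-1 at 6 h.

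The targets with the highest shared means were FASN (1.13, SE 0.23, adjusted p = 0.0904), SCD (0.68, SE 0.22, adjusted p = 0.162) and the phagocytic receptor gene MERTK (0.37, SE 0.19, adjusted p = 0.32). FASN and SCD, enzymes of fatty acid synthesis and desaturation, are also targets of SREBP. Untreated NB4 had 235.1 TPM of FASN and treated NB4 736.5, 714.9 and 620.2 TPM, and for Kasumi-1 the levels were 343.2 TPM untreated and 809.1, 522.6 and 425.9 TPM treated.

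**Figure D4:**
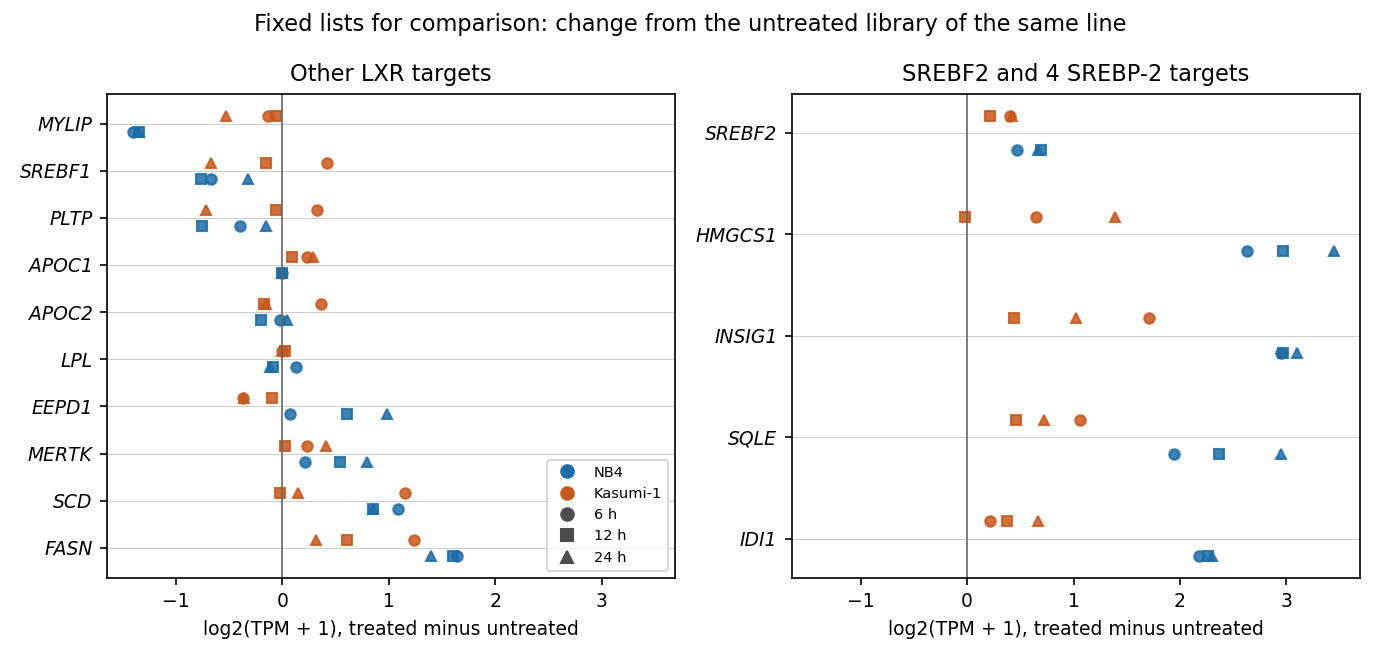
Difference of log2(TPM + 1) between treated and untreated libraries of the same line for the 10 tested further LXR targets (left) and for SREBF2 with 4 SREBP-2 targets (right), with colours for lines and shapes for times. MYLIP lies below -1 in all 3 NB4 libraries, and HMGCS1, INSIG1, SQLE and IDI1 lie above 1 there.

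For comparison, the SREBP-2 list holds SREBF2 and 6 of its targets. Of these 7, 6 were at least 2-fold higher on the log2(TPM + 1) scale at all times in NB4 (2.03% of all genes) and 0 in Kasumi-1 (1.88%). In the test of the response difference, 6 of 7 were lower in Kasumi-1 at an unadjusted p under 0.05, with a median of -1.83. Over all genes, 10.6% were under 0.05 in either direction. After adjustment 0 of 7 passed, beside 0.130% of all genes. Their median shared change was 1.52, and 0 of 7 passed after adjustment by limma (0.0273% of all genes). At an unadjusted p under 0.05, 7 were higher (9.30% of all genes). INSIG1, HMGCS1 and SQLE had the highest means, 2.03 (SE 0.44), 1.84 (SE 0.49) and 1.58 (SE 0.40), with adjusted p = 0.101, 0.126 and 0.119. Without the untreated NB4 library they were 1.06, 0.67 and 0.75, and without the untreated Kasumi-1 library 3.01, 3.02 and 2.42, where HMGCS1 passed (adjusted p = 0.0421). The median change of the list was 2.42 in NB4 and 0.67 in Kasumi-1. These values and those of ABCA1 share the same untreated libraries.

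Of the partners and coregulators, 11 of 13 were tested and 0 passed after adjustment for the shared response (0.0273% of all genes). At an unadjusted p under 0.05, 1 was higher (9.30% of all genes), and the median change was 0.08. RXRA, the partner of LXR, was at 70.5 TPM in untreated NB4 and 76.3, 91.7 and 66.0 TPM treated, and at 25.6 TPM in untreated Kasumi-1 and 38.5, 29.7 and 28.5 TPM treated. NCOA3, a coactivator, had the highest mean (0.59, SE 0.23, adjusted p = 0.217), followed by NCOA1 (0.25) and EP300 (0.22). TBL1X (-0.32), HDAC3 (-0.27) and TBL1XR1 (-0.07), parts of the corepressor complex, had the lowest. RXRB was at or below 1.92 TPM, and it lies on chromosome 6 between 28 and 34 Mb, where 48.0% of coding genes are listed at 0 in all libraries against 16.2% elsewhere.

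The enzymes that make oxysterols were hardly seen. Of 10 makers and removers, 8 stayed under a mean of 1 TPM, and CYP27A1, CH25H and CYP46A1 reached at most 0.184, 0.0273 and 0.486 TPM. HSD3B7, an enzyme of the bile acid route, had a mean change of 0.20.

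Among 17 other carriers, exporters and esterification genes, 13 were tested and 0 passed for the shared response (0.0273% of all genes), with 4 higher at an unadjusted p under 0.05 (9.30% of all genes) and a median of 0.07. STARD4, a cytosolic sterol carrier, had the highest mean (1.41, SE 0.36, adjusted p = 0.119), before NPC2, which binds sterol in the lysosome (1.11, SE 0.17, adjusted p = 0.0748), and LCAT, the plasma esterifying enzyme (0.91, SE 0.33, adjusted p = 0.192). STARD4 was at 12.8 TPM in untreated NB4 and 59.6, 67.7 and 63.7 TPM treated. In Kasumi-1 STARD4 was at 23.8 TPM untreated and 40.7, 26.9 and 44.5 TPM treated. Its Kasumi-1 change minus its NB4 change was -1.63 (SE 0.39, limma adjusted p = 0.263). The lowest shared means were those of GRAMD1B (-0.54), SCARB1 (-0.30) and GRAMD1A (-0.10). GRAMD1B, a carrier of sterol from the plasma membrane to the endoplasmic reticulum, was at 7.88 TPM in untreated NB4 and 5.63, 4.18 and 1.13 TPM treated, and listed at 0 in Kasumi-1. SCARB1, a receptor that exchanges sterol with lipoproteins, was at 153.4 TPM in untreated Kasumi-1 and 122.0, 100.3 and 82.3 TPM treated, while NB4 lay between 219.5 and 277.7 TPM.

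PPAR receptors, some of which can raise NR1H3, differed between the lines by limma, as did 55.4% of all genes tested. The limma adjusted p was 0.00052 for PPARD, 0.00017 for PPARG and 0.00111 for PPARA, with times as repeats. PPARG reached the level for testing only through NB4, so its call adds nothing to its levels. PPARD was at 7.93 TPM in untreated NB4 and 22.5, 20.5 and 28.1 TPM treated, and at 2.36 TPM in untreated Kasumi-1 and 6.09, 4.27 and 3.20 TPM treated (shared mean 1.07, SE 0.28, limma adjusted p = 0.122). PPARG was at 3.74 TPM in untreated NB4 and 2.21 to 2.97 TPM treated, and listed at 0 in Kasumi-1 (shared mean -0.20). PPARA had a shared mean of 0.21. Of the 3, 0 passed the test of the shared response (0.0273% of all genes) or of the response difference (0.130%). At an unadjusted p under 0.05, 1 was higher in the shared response (9.30% of all genes).

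Genes whose log2(TPM + 1) ran most like that of a member over the 8 libraries were sought among those averaging 5 TPM or more, and Pearson's r is given as a description. For ABCA1 these were FTSJ2, PVRL1 and TTC9C (r = 0.95 each), all highest in untreated NB4; FTSJ2 was at 87.9 TPM there and between 19.8 and 29.5 TPM in the other 7 libraries. For NR1H3 they were ZFYVE19, STXBP2 and RPAIN (r = 0.996, 0.992 and 0.991). The 3 nearest to APOE were NXF1, BRI3 and OS9 (0.96 to 0.98), and those nearest to NR1H2 were MYL12A, KIFC3 and VCL (0.96 to 0.97). LPCAT3 had TRIB2, HIGD1A and RPL8 (0.96 to 0.98), and SMPDL3A had S100A6, MYL12A and GBP2 (0.96 to 0.99). A steady gap between the lines, or 1 library that stands apart as untreated NB4 does for ABCA1, is enough to give such an r.

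Most markers of each line were present in it. The granule genes MPO, AZU1, CTSG and PRTN3 were seen in untreated NB4, and ELANE was at or below 0.759 TPM in NB4. All but CTSG were higher in untreated Kasumi-1, so this list does not set NB4 apart. Untreated Kasumi-1 had 9908 TPM of MPO, 1460 of AZU1, 5971 of PRTN3, 629.7 of ELANE and 11.6 of CTSG. KIT, CD34 and RUNX1T1 were above 18 TPM in every Kasumi-1 library and under 1 TPM in NB4. In Kasumi-1, KIT was at 449.8 TPM untreated and 72.5, 115.1 and 191.6 TPM treated, and CD34 at 111.8 TPM untreated and 18.3, 36.5 and 57.5 TPM treated. These progenitor markers were lower in the libraries where APOE and SMPDL3A were higher, and their part in those values was not tested. Because ABCA1 and APOE are known from macrophages, 5 macrophage markers were checked: CD14, CD163, MRC1, MSR1 and MARCO were under 1 TPM in all libraries, with a sum of 0.06 TPM in untreated NB4, 0.22 to 0.83 TPM in treated NB4 and at most 0.24 TPM in Kasumi-1. MPO was at 4889 TPM in untreated NB4 and 3140, 2104 and 1528 TPM treated. From untreated to 24 h in NB4, CTSG went from 464.3 to 31.0 TPM, PRTN3 from 1002 to 139.8 TPM and AZU1 from 261.8 to 138.0 TPM. The part of these granule genes in the NB4 values was not tested. Of the other markers, EPCAM was at 15.7 to 29.7 TPM in both lines, and the erythroid and hepatocyte sums were at or below 0.70 TPM. Mitochondrial genes took 5.04% to 10.58% of the TPM in 7 libraries and 17.12% in Kasumi-1 at 24 h.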

How the data were processed

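The submitters' processing notes name HISAT2, StringTie and the hg19 build, with versions, options, annotation and strand setting not given in the sources used here. The deposited TPM values sum to the same total in each of the 8 libraries. The deposited FPKM values served as an alternative, and the deposited coverage signal only to infer depth. The commonest ratio of coverage to FPKM was 7.08 to 9.83, and aligned bases of low genes clustered at 151 and 302, taken as pairs of reads; 1 TPM was then worth 9.7 to 13.4 read pairs per kb.

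Samples were grouped by line and time in their titles. Rows were summed by gene symbol. Genes averaging 1 TPM or more (14650) were tested on log2(TPM + 1), which understates folds of low genes, with limma 3.58.1 in R 4.3.3 (eBayes with trend, two-sided, Benjamini-Hochberg over all genes, threshold 0.05). The shared response was the mean of 3 treated times minus untreated, with line as a term, so its p-values reflect the likeness of both lines. For the response difference, an interaction of line and treatment was fitted, taking times as repeats. Simulated data with independent noise in each library were used to check the mean estimates of the shared response and the response difference. That check does not bear on the p-values, since these data hold no repeated cultures. Python 3.11.15 and pandas 2.3.3 read the tables. Promoters are RefSeq's (GRCh38.p14).

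All members, the 3 genes of each list with the largest mean each way and the 3 most similar genes were named; other names were chosen after their values were seen. Some genes that this rule or the lists name are not reported here. Members and lists were chosen with earlier results of these data known. Alternatives were a pseudocount of 0.1 TPM, no filter or a mean of 5 TPM, FPKM, TPM rescaled after removing mitochondrial genes and the 10 largest of any library, other model terms, and leaving out each library.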

Additional observations from a re-analysis of the deposited data

Results flagged for a closer look

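For ABCA1 the Kasumi-1 change minus the NB4 change was 3.15 on the log2(TPM + 1) scale, past the threshold of the test of the difference (limma adjusted p = 0.0222). All 3 treated NB4 libraries were lower than the untreated one. Kasumi-1 was listed at 0 TPM untreated and at or below 0.0280 TPM treated, so it had no measurable level from which to fall, and ABCA1 reached the level for testing only through untreated NB4. The value therefore describes NB4 alone.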

How the results depend on the processing

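Genes called for the shared response numbered 4 (4 higher) and became 0 with a pseudocount of 0.1 TPM, with no filter and with no cell line term, 27 (21 higher) with a mean of at least 5 TPM, 1 with FPKM, 17 (15 higher) after rescaling and 133 (78 higher) with times as repeats. Leaving out 1 library gave 0 to 50. Members called were 0, and 0 to 1 without a library. The response difference had 19 genes (6 higher) and 528 (256 higher) with no filter, or 0 to 31 without a library; its 1 member, ABCA1, became 0 with a pseudocount of 0.1 TPM and with a mean of at least 5 TPM (where ABCA1 is not tested), and 0 to 1 without a library, where its value was 3.09 to 3.18 over 6 fits, against 4.49 with the pseudocount. It cannot be had without an untreated library. Between the lines 2 members were called, and 1 to 3 without a library; other genes than NR1H3 changed with the setting (ABCA1 with a pseudocount of 0.1 TPM, LPCAT3 with FPKM, APOE and LPCAT3 after rescaling, ABCG1 with no filter).

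Counts of genes past 2-fold on the log2(value + pseudocount) scale at every time went from 297 higher and 103 lower to 535 and 187 with a pseudocount of 0.1 TPM in NB4, and from 275 and 96 to 535 and 157 in Kasumi-1, or 177 and 59 with FPKM. By the same count, Kasumi-1 members higher were 1, then 2 and 0, although APOE and SMPDL3A were each over 3-fold higher in TPM. Without 1 library, shared means ranged from -3.13 to 0.0216 for ABCA1, -0.17 to 0.0293 for LPCAT3, -0.75 to 0.12 for TBL1X, -0.59 to 0.0597 for HDAC3, -0.0943 to 0.49 for HSD3B7, -1.09 to 0.00 for GRAMD1B, -0.61 to 0.0079 for SCARB1, -0.24 to 0.0292 for GRAMD1A and -0.40 to 0.00 for PPARG. The response difference of APOE ranged from -0.0495 to 0.82. Without the untreated library of 1 line, the shared mean is the other line's change. Means of 1 sign that also moved over 1.5 times were those of SMPDL3A (0.18 to 0.74), NR1H2 (0.13 to 0.65), NR1H3 (0.17 to 0.42), MYLIP (-1.36 to -0.24), STARD4 (0.60 to 2.23), INSIG1 (1.06 to 3.01), HMGCS1 (0.67 to 3.02) and SQLE (0.75 to 2.42), among others. The causes of the other shifts were not tested. Each condition had 1 library, so there were no replicates to pair. Cell line is a term of the shared fit.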
